A study of Mus musculus with 3 samples.

Results

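Low-scoring retinoic acid receptor α (RARα) peaks that lie on retinoid x receptor α (RXRα) signal are described here in mouse liver chromatin. The members are the peaks of the deposited RARα list with a score of 20 or less that overlapped an RXRα region by at least 1 bp. There were 15072 of them among 143280 RARα peaks, next to 95262 peaks of the same score range off RXRα, 10902 peaks scoring over 20 on RXRα and 22044 peaks scoring over 20 off RXRα. An RXRα region was a run of 32 bp bins, joined within 200 bp, in which RXRα reached at least 20-fold of the local input and of the mean input after both signals had been scaled to 1 mean. All chromatin came from livers of wild type male C57BL/6 mice, whose age is 3 months in the sample labels, with no treatment named. The libraries were 1 RXRα ChIP, 1 input without precipitation and 1 RARα ChIP with an antibody of Santa Cruz (sc-551x). With 1 library per antibody there is no replicate check, and peaks of a library are not replicates, so no test was run and shares are given with 95% Wilson intervals that cover counting error only. Whole liver was used, so a weak signal from fewer cells and a weak signal in every cell cannot be told apart.

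RARα and RXRα are nuclear receptors that bind DNA as a heterodimer. RARα binds retinoic acid, the active form of vitamin A, and RXRα is also the partner of the receptors for fatty acids (PPARα), bile acids (FXR), oxysterols (LXR) and xenobiotics (PXR). Each receptor of a dimer contacts a half-site close to AGGTCA, and the order and spacing of the half-sites differ between dimers. RAR with RXR is known for direct repeats spaced by 5 or 2 bases (DR5, DR2), PPARα with RXR for a spacing of 1 (DR1), LXR with RXR for a spacing of 4 (DR4) and FXR with RXR for an inverted repeat with a spacing of 1 (IR1). HNF4α, an orphan receptor of hepatocytes, also binds DR1-like sites.

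The sequences below show what such sites look like under low-scoring RARα peaks. For each arrangement they are the 3 members with the highest RXRα over input among those outside exons with at most 1 mismatch in the 12 letters of the half-sites. All are from NCBI37/mm9, read 5′ to 3′ on the strand that is named, with 12 bases on either side and the half-sites in capitals. The DR1 sites are those of members nearest to Paqr9, Wdr89 and Mapre3.
DR1 near Paqr9, chr9:95453036-95453072, plus strand: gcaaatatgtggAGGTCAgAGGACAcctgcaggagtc
DR1 in an intron, nearest to Wdr89, chr12:76768167-76768203, minus strand: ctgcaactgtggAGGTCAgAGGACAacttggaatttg
DR1 in an intron, nearest to Mapre3, chr5:31136002-31136038, plus strand: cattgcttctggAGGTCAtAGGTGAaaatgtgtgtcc

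The DR5 sites show the spacing of RAR with RXR, and their members had scores of 15, 12 and 20.
DR5 nearest to Dio3 (306538 bp from its start), chr12:111210802-111210842, minus strand: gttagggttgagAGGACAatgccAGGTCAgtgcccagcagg
DR5 in an intron, nearest to Nans, chr4:46511645-46511685, plus strand: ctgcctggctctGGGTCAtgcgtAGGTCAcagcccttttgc
DR5 in an intron, nearest to Sfxn5, chr6:85293209-85293249, plus strand: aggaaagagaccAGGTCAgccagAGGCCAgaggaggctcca

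The DR4 and IR1 sites show the spacings of LXR and FXR with RXR. At the member nearest to Gadd45g the DR4 and the IR1 share a half-site, so that 3 half-sites stand in a row.
DR4 nearest to Gadd45g (163228 bp from its start), chr13:52105335-52105374, minus strand: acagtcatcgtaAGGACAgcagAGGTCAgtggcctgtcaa
DR4 near Mcart1, chr4:45426762-45426801, minus strand: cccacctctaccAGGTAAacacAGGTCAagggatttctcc
DR4 nearest to Egf (103545 bp from its start), chr3:129354636-129354675, plus strand: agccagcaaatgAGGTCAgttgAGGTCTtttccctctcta
IR1 nearest to Gadd45g, chr13:52105328-52105364, plus strand: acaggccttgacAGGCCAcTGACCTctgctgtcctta
IR1 upstream of Abcb11, chr2:69180712-69180748, plus strand: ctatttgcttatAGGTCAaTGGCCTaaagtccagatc
IR1 in an intron, nearest to Mad1l1, chr5:140594153-140594189, plus strand: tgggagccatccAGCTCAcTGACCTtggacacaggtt

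The members were chosen by the RARα score and by the RXRα and input signal, so these values are given as a description. The members had a median score of 13 (quartiles 10 and 16), a median width of 351 bp and a median false discovery rate of 0.13%, which was below 1% for 78.3% of them. RARα peaks of the same score range off RXRα were narrower, with a median width of 261 bp, and peaks scoring over 20 on RXRα were wider, with 550 bp. Wider peaks met RXRα regions more often, as 6.63% of the low-scoring peaks up to 201 bp wide and 24.1% of those of 380 bp or more were members. The top bin, which is the bin with the highest RXRα over input and need not hold the most reads, had a median of 30 RXRα reads within a member, with quartiles of 20 and 48 and a range of 13 to 347, while the input in that bin held 0 reads at 62.4% of the members. The signal totals corresponded to 9999939 reads for RXRα and 9999292 for input, and the mean input was 0.603 reads per bin, so over an empty input bin 13 RXRα reads were enough for a region and over 1 input read 21 were needed. The median highest ratio over input was 37.0, compared to 38.2 at peaks scoring over 20 on RXRα, and 44.0% of the members exceeded a ratio of 40. Averaged over the whole peak, members had a median RXRα enrichment of 13.9 over input, compared to 1.29 at low-scoring peaks off RXRα, 10.97 at higher peaks on RXRα and 2.63 at higher peaks off RXRα. The mean input over the peak also differed between the classes, with medians of 1.32, 0.833, 1.81 and 1.64 reads per bin in the same order, and its part in the differences between the classes was not tested. Because regions were joined across gaps, 3 members touched a region without a bin at the threshold inside them.

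**Figure D1:**
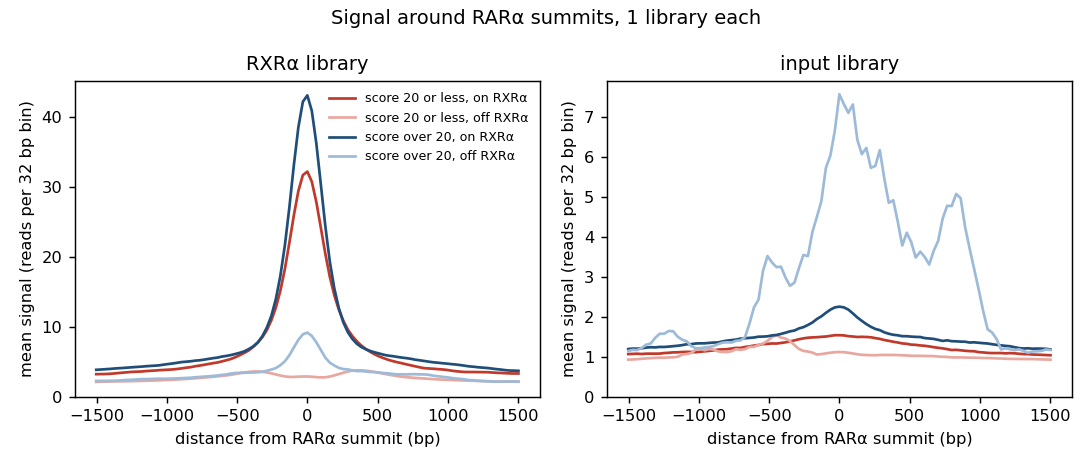
Mean signal in reads per 32 bp bin (vertical axes) against the distance from the RARα summit in bp, in the RXRα library (left) and the input library (right, smaller scale), for the 4 classes of RARα peaks, with 1 library each and no error shown. At the summit the members reached 32.2 RXRα reads and 1.54 input reads per bin, and higher peaks on RXRα 43.1 and 2.25, while low-scoring peaks off RXRα had 2.91 and 1.12 and higher peaks off RXRα 9.19 and 7.57.

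The share of RARα peaks on an RXRα region rose with the RARα score up to the score that bounds the members. It was 4.15% (95% interval 3.54 to 4.88%) at a score of 5, 9.26% (8.79 to 9.75%) at 10, 26.9% (25.4 to 28.4%) at 15 and 36.4% (34.6 to 38.3%) at 20. The median width of the peaks rose along with the score, from 171 bp at 5 to 310 bp at 10, 351 bp at 15 and 410 bp at 20, and the part of width in the rise was not tested. Over all peaks scoring 20 or less the share on RXRα was 13.7%, and over the whole list 18.1%. No step was visible at the threshold, since 927 peaks with a score of 20 lay on RXRα, with a median highest ratio of 43.1, and 683 peaks with a score of 21, which were 36.8% (34.6 to 39.0%) of the peaks of that score, with a median ratio of 44.0. On the side of the RXRα threshold, 1201 members had a highest ratio of 20 to under 22, while 2458 low-scoring peaks had a ratio of 18 to under 20 and were left out. Their median RARα score was 12 in both cases.

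**Figure D2:**
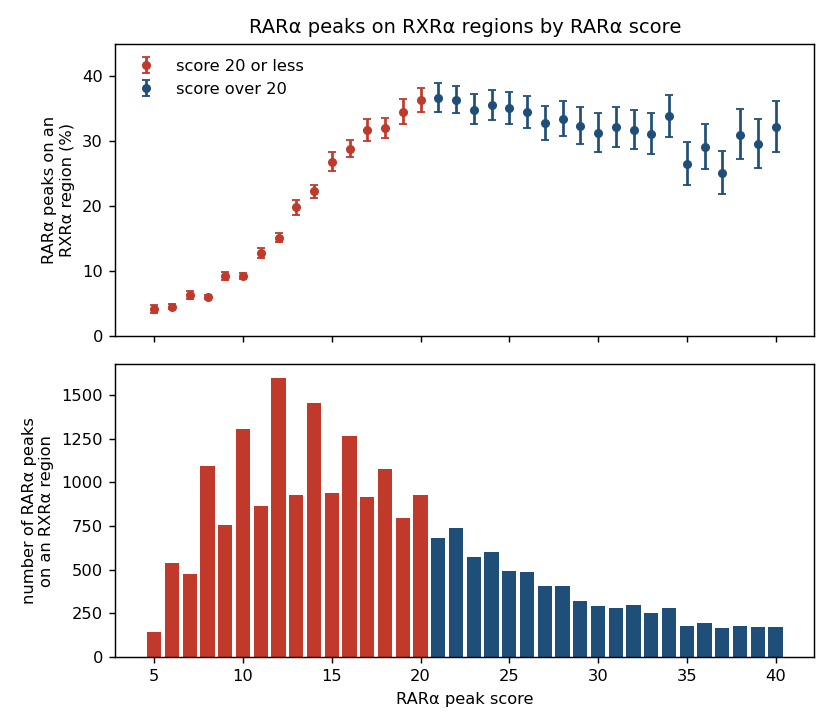
Top, percent of RARα peaks on an RXRα region by RARα score, with 95% Wilson intervals as bars; bottom, number of such peaks, with members in red and peaks scoring over 20 in blue, up to a score of 40. The share climbs from 4.15% at a score of 5 to 36.4% at 20 and is 36.8% at 21 and 36.4% at 22, and the number per score peaks at 1596 at a score of 12.

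Of 42117 RXRα regions, 10713 (25.4%, 25.02 to 25.9%) met a RARα peak scoring over 20, 11897 (28.2%, 27.8 to 28.7%) met members and no higher peak, and 19507 (46.3%, 45.8 to 46.8%) met no RARα peak of the list. The order of the first 2 counts depended on the score that bounds the members, as peaks with a score of 15 or less alone met 7337 regions and those with 10 or less 2514, both fewer than the regions with a higher peak. The members met 12991 regions in all, of which 1094 also met a higher peak. The regions of members alone had a median highest ratio of 38.2, the same as regions with a higher RARα peak, and regions without a RARα peak had 31.5. In RXRα reads of the top bin the medians were 30 for members alone, 33 with a higher peak and 23 without a RARα peak. Among the 1000 regions with the highest ratio, 436 met a higher peak, 355 met members alone and 209 met none. The regions of members alone were 160 bp wide in the median, compared to 128 bp and 96 bp for the other 2 kinds. The 3 kinds differed in position, with 33.7% of the regions with a higher peak, 8.36% of those with members alone and 3.53% of those without a RARα peak within 1 kb from a transcriptional start site (TSS).

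Since members overlap an RXRα region by the rule, the distance between both signals is given as a description. The top bin of the RXRα region fell inside the member in 76.9% of cases. Over all members it lay at a median of 80 bp from the RARα summit, and within 100 bp for 59.8% of them. Many members were parts of longer stretches, as 61.2% (60.5 to 62.0%) directly abutted another RARα peak and 27.1% stood in runs of 3 or more, while 38.8% stood alone. Abutting another peak was common in all classes, with 56.6% of low-scoring peaks off RXRα, 65.4% of higher peaks on RXRα and 52.9% of higher peaks off RXRα. Abutting a peak that scored over 20 was less common, with 12.7% (12.2 to 13.2%) of the members, compared to 12.99% of low-scoring peaks off RXRα, 27.2% of higher peaks on RXRα and 16.4% of all RARα peaks. The median distance from a member to a peak scoring over 20 was 6505 bp, and that of low-scoring peaks off RXRα was 6602.5 bp. Within 10 kb of a higher peak lay 58.9% and 58.0% of these classes, respectively.

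**Figure D3:**
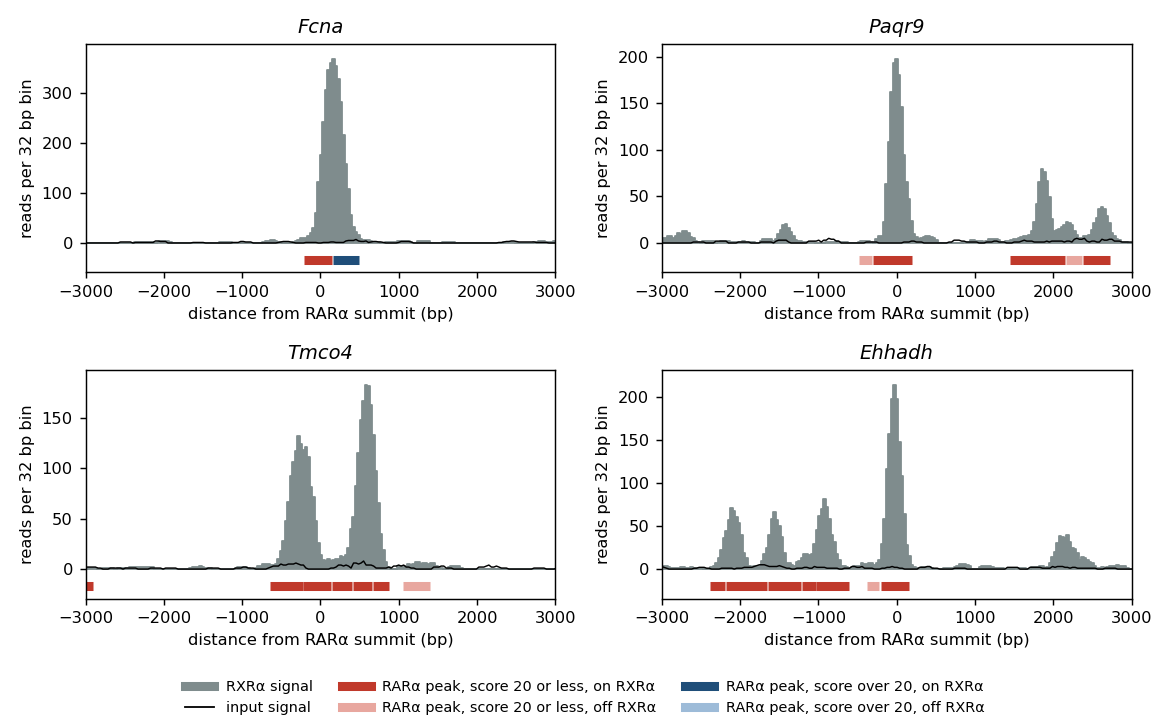
RXRα signal (grey) and input signal (line) in reads per 32 bp bin against the distance in bp from the summit of a member, at the 2 genes with the highest RXRα ratio within 10 kb (Fcna, Paqr9) and at Tmco4 and Ehhadh, with RARα peaks as bars below coloured by class. At Fcna the member shares its RXRα region with a higher peak that has a score of 23, while at the other 3 genes each RXRα maximum in the window lies over a low-scoring RARα peak or over none.

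Members lay far from gene starts more often than the other classes did. A TSS of a protein-coding gene within 1 kb of the summit was found for 9.36% (8.91 to 9.84%) of the members, against 17.8% of all RARα peaks. In the other classes the share was 13.5% (13.3 to 13.7%) at low scores off RXRα, 34.1% (33.2 to 35.0%) at high scores on RXRα and 34.0% (33.3 to 34.6%) at high scores off RXRα. Within 10 kb it was 34.0% (33.2 to 34.8%) of the members, against 42.2% of all peaks. Over 100 kb away were 14.3% of the members, 11.2% of low-scoring peaks off RXRα and 7.16% of higher peaks on RXRα. The median distance to a TSS was 20616 bp for members, 16437.5 bp for low-scoring peaks off RXRα and 6207.5 bp for higher peaks on RXRα. Introns held 50.4% of the member summits, 42.5% were outside protein-coding genes, 4.44% in untranslated or non-coding exons and 2.57% in coding exons. Untranslated or non-coding exons held 18.6% of the higher peaks on RXRα and 7.87% of the low-scoring peaks off RXRα. Members were found on 20 chromosomes. In the 201 bp around their summits the median GC content was 48.8%. It was 54.2% at higher peaks on RXRα and 47.8% at low-scoring peaks off RXRα. Windows with 10 or more CpG were found at 5.81% of the members, and at 32.5% and 8.47% of these classes, respectively.

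The DNA under the members was then searched for AGGTCA and its repeats on both strands, in the 201 bp around the RARα summit and in windows centred 500 bp to either side. Sequence was not used to choose the members. The half-site AGGTCA itself, without a mismatch, was present at 28.3% (27.5 to 29.0%) of the members, 13.4% of low-scoring peaks off RXRα, 21.4% of higher peaks on RXRα and 9.94% of higher peaks off RXRα, compared to 15.1% of all peaks and 13.4% of the members' flanks. A DR1 (AGGTCANAGGTCA, at most 2 mismatches) was present at 10.1% (9.59 to 10.6%) of the members, against 4.34% of all peaks. The corresponding shares were 3.50% at low scores off RXRα, 7.93% at high scores on RXRα, 2.30% at high scores off RXRα and 3.31% in the members' flanks. For IR1 (AGGTCANTGACCT, at most 2 mismatches) they were 3.49% (3.21 to 3.79%) at members, 1.04%, 2.70% and 0.667% in the other classes in the same order, 1.03% in flanks and 1.37% over all peaks. The ratio of members to their flanks was 3.39 for IR1, 3.04 for DR1, 2.21 for DR4 (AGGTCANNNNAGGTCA), 2.02 for DR5 (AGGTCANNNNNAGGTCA) and 1.76 for DR2 (AGGTCANNAGGTCA). A DR4 was found at 4.99% of the members and 3.12% of all peaks, a DR5 at 4.37% and 2.39%, and a DR2 at 5.31% and 2.84%. The other spacings were found at 7.09% of the members for DR0 and 3.6% of all peaks, 4.21% and 2.53% for DR3, 4.63% and 2.6% for DR6, 4.43% and 2.49% for DR7, and 4.83% and 2.6% for DR8, which was 1.65 to 2.13 times their flanks. The everted repeat ER6 (TGACCTNNNNNNAGGTCA) was the rarest repeat, with 1.87% of the members and 1.07% of all peaks. The repeats overlap in letters with each other, with the half-site and with the HNF4 core, so that 1 site can count under several names. Any repeat of the half-site was present at 36.4% of the members, 18.9% of low-scoring peaks off RXRα and 29.2% of higher peaks on RXRα. Of the higher peaks off RXRα, 14.5% had one.

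**Figure D4:**
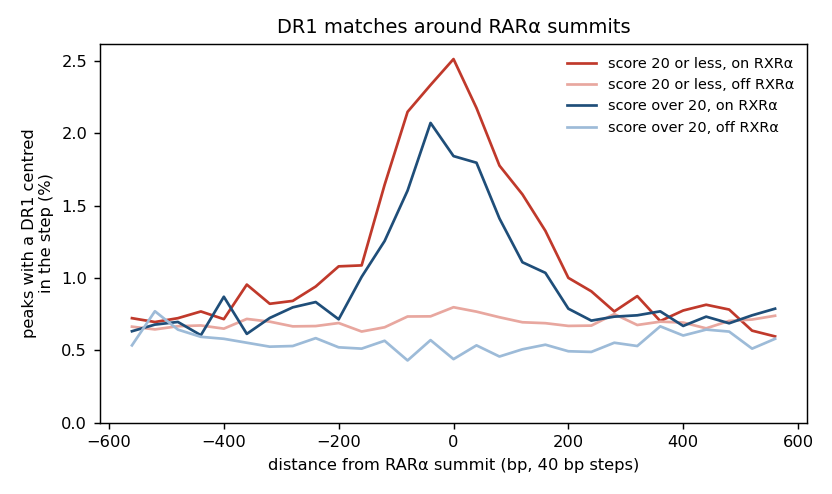
Percent of RARα peaks with a DR1 (at most 2 mismatches) centred in each 40 bp step (vertical axis) against the distance from the RARα summit in bp, for the 4 classes of peaks, without error bars. In members the share is 2.51% at the summit and 0.723% and 0.597% at 560 bp to either side, and in low-scoring peaks off RXRα it is 0.799% at the summit.

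The share of members with a DR1 was level across the RARα scores and higher at higher RXRα ratios. Members with scores of 5 to 8, 9 to 12, 13 to 16 and 17 to 20 had a DR1 in 10.3% (9.13 to 11.6%), 9.66% (8.84 to 10.6%), 10.2% (9.34 to 11.1%) and 10.3% (9.32 to 11.3%), with intervals that overlap throughout. Split by the highest RXRα ratio at 29.9 and 48.997, the members had a DR1 in 7.96% (7.25 to 8.73%), 10.3% (9.47 to 11.2%) and 12.04% (11.2 to 12.97%). The share with an IR1 was 2.28%, 2.91% and 5.33% (4.74 to 5.98%) in these groups, and that with a half-site 22.9%, 27.6% and 34.4%. Members within 1 kb from a TSS had a DR1 in 6.87% (5.67 to 8.32%) and those beyond 10 kb in 10.6% (10.004 to 11.2%). When only peaks beyond 1 kb from a TSS were compared, the share with a DR1 was 10.4% (9.89 to 10.9%) at members and 10.03% (9.35 to 10.7%) at higher peaks on RXRα, with intervals that overlap. For the half-site the intervals did not overlap, with 29.0% (28.2 to 29.8%) and 25.7% (24.7 to 26.7%). All these intervals treat peaks as independent although many abut and can share a site, so their overlap or separation is not a test.

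Close matches were rarer. At most 1 mismatch in a DR1 was found at 339 members (2.25%, 2.02 to 2.50%), of which 27 had none, compared to 0.564% of low-scoring peaks off RXRα and 1.52% of higher peaks on RXRα. Such DR1 sites within 300 bp lay at a median of 92 bp from the RARα summit and 64 bp from the top bin of the RXRα region, over 637 members. The same order was found for IR1 with 96 and 56 bp over 142 members, for DR2 with 90.5 and 67.5 bp over 237, for DR5 with 84 and 73 bp over 177 and for DR4 with 112.5 and 82.5 bp over 231. The site was nearer to the top bin than to the RARα summit in 50.2 to 55.9% of the members over these arrangements, where the RXRα position is known to 32 bp only. Counted by region and around the top bin, a DR1 was present at 8.87% (8.34 to 9.42%) of the regions with a higher RARα peak, 12.6% (12.1 to 13.3%) of those with members alone and 13.4% (12.9 to 13.9%) of those without a RARα peak. A DR5 was present at 4.12%, 5.28% and 5.92% of these regions, respectively.

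Motifs of other liver factors were also more frequent at members than in their flanks. The core of HNF4 (CAAAGTCCA, at most 1 mismatch) was found at 15.3% (14.7 to 15.9%) of the members, 7.13% of low-scoring peaks off RXRα and 14.3% of higher peaks on RXRα, compared to 6.71% of the members' flanks and 8.45% of all peaks. Beyond 1 kb from a TSS the HNF4 core was less frequent at members than at higher peaks on RXRα, with 15.97% (15.4 to 16.6%) and 17.99% (17.1 to 18.9%). A C/EBP palindrome (TTGCGCAA, at most 1 mismatch) was found at 6.78% of the members and 3.82% of all peaks, a forkhead motif (TGTTTAC) at 5.69% and 3.46%, and an HNF1 palindrome (GTTAATNATTAAC, at most 2 mismatches) at 3.00% and 1.28%. These proteins are known as factors that define hepatocytes. Higher peaks on RXRα had the C/EBP, forkhead and HNF1 motifs at 6.47%, 5.06% and 2.55%. Beyond 1 kb from a TSS they had them at 7.10%, 6.60% and 3.33%. The members there had 6.82%, 6.00% and 3.12%, with intervals that overlap. Motifs of more general factors stood less far above the flanks, with TGANTCA of AP-1 at 7.69% of the members, 5.72% of their flanks and 6.01% of all peaks, the glucocorticoid receptor core ACANNNTGT at 7.56%, 6.49% and 6.29%, the E-box CACGTG at 4.68%, 2.94% and 3.84%, and the CCAAT box at 24.4%, 23.1% and 23.5%. Unlike DR1, the HNF4 core rose with the RARα score within the members, from 11.6% at scores of 5 to 8 to 18.1% (16.9 to 19.3%) at scores of 17 to 20. The rise was not particular to HNF4. Between the same scores the C/EBP palindrome went from 4.72% to 8.31%, the forkhead motif from 4.27% to 6.11% and the HNF1 palindrome from 2.67% to 3.28%. A motif of the insulator protein CTCF (CCANNAGNNGGC) was found at 1.78% (1.59 to 2.01%) of the members and 1.503% of their flanks. It was present at 4.80% of low-scoring peaks off RXRα, 5.27% of higher peaks on RXRα, 19.2% of higher peaks off RXRα and 6.73% of all peaks. Among members the share with this motif was 2.32% in the lowest and 1.19% in the highest of the 3 groups by RXRα ratio. By RARα score it was 1.07% at 5 to 8 and 2.50% at 17 to 20. Motifs that are common at the promoters of widely expressed genes were at 0.755 (YY1) to 1.29 (ETS) times the level of the flanks. The ETS motif (CCGGAAG) was found at 1.49% of the members and 1.16% of their flanks, compared to 5.34% of higher peaks on RXRα and 2.58% of all peaks, and the NRF1 palindrome (at most 1 mismatch) at 0.511%, 0.408%, 3.797% and 1.31%. A GC box (GGGGCGGGG, at most 1 mismatch) was found at 11.98% of the members and 11.01% of their flanks, compared to 25.3% of higher peaks on RXRα and 14.2% of all peaks. Beyond 1 kb from a TSS, the ETS motif was found at 1.20% of the members and 2.09% of higher peaks on RXRα. The NRF1 palindrome was found there at 0.307% and 1.34%, and the GC box at 10.1% and 14.1%. The part of the distance to a TSS in these differences was not tested. The YY1 motif (AAGATGGCG, at most 1 mismatch) at 2.54% was below the 3.37% of the flanks and the 4.83% of all peaks. None of the repeats, the half-site, the HNF4 core, the C/EBP, forkhead or HNF1 motifs was present in these windows at 41.6% (40.9 to 42.4%) of the members and 50.2% of the higher peaks on RXRα. Off RXRα this share was 66.5% at low-scoring peaks and 71.1% at higher peaks.

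**Figure D5:**
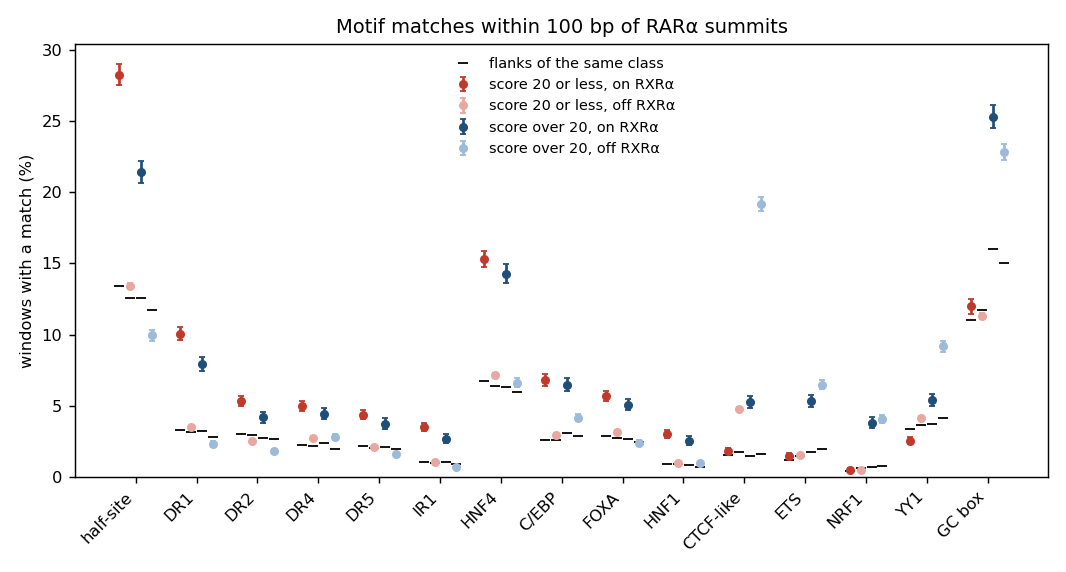
Percent of 201 bp windows around RARα summits with at least 1 match (vertical axis) for 15 motifs in the 4 classes of peaks, with 95% Wilson intervals as bars on the points and black ticks for the flanks of the same class. Members are at 1.76 to 3.39 times their flanks for the half-site, the repeats and the HNF4, C/EBP, forkhead and HNF1 motifs. For the CTCF-like, ETS, NRF1, YY1 and GC box motifs they are at 0.755 to 1.29 times their flanks.

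Genes were counted as co-located through members when they were the nearest protein-coding gene of a member with its summit within 10 kb from the TSS. There were 3242 such genes, 14.6% of 22225 gene symbols, reached by 5123 members. Of these genes, 2061 had a single member and 426 had 3 or more. A higher RARα peak on RXRα was also present at 1658 of them, while 1584 genes, 7.13% of all symbols, were co-located through low-scoring peaks alone. Of those, 713 were the nearest gene of no RARα peak scoring over 20 within 10 kb, on RXRα or off it. Here and below, each peak was counted for its nearest gene only, so a peak nearer to a neighbouring gene is not counted.

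The members with the highest RXRα over input within 10 kb from a TSS carried from 149 to 346 RXRα reads in their top bin over 0 or 1 input read. The highest was upstream of Fcna (ENSMUSG00000026938.9), which encodes the lectin ficolin A. This member, chr2:25484031-25484380 with its summit 685 bp before the TSS, had a RARα score of 13 and held 346 RXRα reads (exact Poisson interval 310 to 384) over 1 input read. Its RXRα region also met a higher RARα peak with a score of 23, and held up to 368 reads in a bin outside the member. Next was Paqr9, a member of the progestin and adiponectin receptor family, where the member chr9:95452681-95453180 at -7256 bp had a score of 18 and held 198 RXRα reads (171 to 228) over 0 input reads. Paqr9 had 5 members within 10 kb and no higher RARα peak on RXRα. The members at Nans, which encodes the sialic acid synthase, at Ccdc38 and at Dnahc6, an axonemal dynein, held 189, 282 and 167 RXRα reads with scores of 10, 14 and 14. At 2900026A02Rik and Wdr89 there were 166 and 165 RXRα reads with scores of 19 and 17. Aldh1l1, the formyltetrahydrofolate dehydrogenase of one-carbon metabolism, had 6 members, the highest of which held 150 RXRα reads with a score of 12. Among the members further than 10 kb from a TSS, the highest ratio was 466, from 281 RXRα reads over 0 input reads with a score of 12 and Prr16 as the nearest gene, 344488 bp away.

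Of the highest 10, 2 lay in a proximal promoter. Abcb11, the bile salt export pump that secretes bile acids into bile, had a member at -74 bp, chr2:69180601-69180941, with a score of 20 and 164 RXRα reads (140 to 191) over 0 input reads, and a higher RARα peak on RXRα elsewhere within 10 kb. The member of Cyp3a25, a cytochrome P450 of drug metabolism, lay at -91 bp, chr5:146821151-146821440, with a score of 12 and 149 RXRα reads (126 to 175) over 0 input reads. These promoters are shown with that of F9, coagulation factor IX, and of Pdk4, pyruvate dehydrogenase kinase 4, as 101 bases around the RARα summit in the direction of the gene, upstream of the TSS. Capitals mark the matches to the motifs named, and other motifs of the search are not marked. At Pdk4 none is marked, although its window holds a CCAAT box, read as ATTGG on the strand shown.
Abcb11 (DR8, HNF4, IR1), chr2:69180695-69180795, minus strand: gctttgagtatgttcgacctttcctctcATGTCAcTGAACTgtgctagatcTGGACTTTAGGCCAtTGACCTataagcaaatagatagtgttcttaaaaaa
Cyp3a25 (C/EBP), chr5:146821235-146821335, minus strand: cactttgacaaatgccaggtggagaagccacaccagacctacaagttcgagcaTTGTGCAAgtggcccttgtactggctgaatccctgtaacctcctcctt
F9 (HNF4, C/EBP), chrX:57252540-57252640, plus strand: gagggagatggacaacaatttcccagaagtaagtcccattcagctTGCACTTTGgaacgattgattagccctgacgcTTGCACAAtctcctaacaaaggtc
Pdk4 (none), chr6:5446395-5446495, minus strand: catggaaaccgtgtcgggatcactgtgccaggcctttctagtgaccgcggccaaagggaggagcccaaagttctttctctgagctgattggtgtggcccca

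The lists below were counted as they stand, with a member within 10 kb and with co-location through members alone, beside the 14.6% and 7.13% of all symbols. Over all 22225 symbols, a higher peak on RXRα was present at 4259, also more than the 3242 with a member. A higher peak on RXRα was present at more genes than a member in lists such as amino acid catabolism and the urea cycle (31 against 24), coagulation, complement and acute phase (35 against 28), mitochondrial fatty acid oxidation (21 against 18) and the circadian clock (15 against 9), and at fewer in lipogenesis (10 against 16), triglyceride and lipid droplets (14 against 17) and peroxisomal fatty acid oxidation (13 against 14). Genes of retinoid metabolism and transport had a member at 12 of 23 genes, and 4 of these, Aldh1a1, Aldh1a7, Dhrs9 and Rdh9, were co-located through members alone. Dhrs9, which oxidizes retinol, had 222 RXRα reads over 2 input reads at an intronic member with a score of 19, and Rdh9, a retinol dehydrogenase, had 60 reads over 1 with a score of 10. Among the retinoid receptors and RXR partners, 6 of 17 had a member, and of the RAR genes Rarg, which encodes RARγ, was reached by a member alone, with 38 RXRα reads over 0 and a score of 12. Rxra had 3 members beside 4 higher peaks on RXRα, and Rara had no member and 2 higher peaks on RXRα. Cyp26a1, which degrades retinoic acid, had 2 members beside 2 higher peaks, and the stronger member at -1618 bp held 24 RXRα reads over 0 with a score of 12.

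Genes of bile acid and sterol handling had members at 7 to 15 genes of a list. Of 25 bile acid genes 15 had one, and Abcc4, Cyp46a1 and Slc10a1 had no higher peak on RXRα. At Slc10a1, the bile acid uptake carrier of hepatocytes, the member at -8174 bp had a score of 20 and 155 RXRα reads over 2 input reads, and at Abcc4, an exporter, 116 reads over 0 with a score of 16. Of 25 genes of cholesterol synthesis and uptake 10 had a member, and Fdft1, the squalene synthase, was reached through a member alone. Of 15 genes of sterol efflux and other LXR targets 8 had a member. Abcg1, Scd1 and Scd2 were reached through members alone. Abca1, the cholesterol efflux pump, had 1 member with 23 RXRα reads beside 2 higher peaks on RXRα. Apolipoprotein genes had a member at 7 of 15, with Apom through a member alone.

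Genes of fatty acid metabolism had members at most of the genes listed. Of 18 genes of lipogenesis, elongation and desaturation, 16 had a member, with 38 members in all, and 6 of them were reached through members alone, namely Acacb, Acly, Elovl3, Me1, Scd1 and Scd2. Elovl3, a fatty acid elongase, had 82 RXRα reads over 0 at a member with a score of 19, and Acacb, an acetyl-CoA carboxylase, had 52 over 0 with a score of 11. Scd1, the stearoyl-CoA desaturase of liver, had 2 members, of which the stronger at -8666 bp held 112 RXRα reads over 2 with a score of 13. Of 26 genes of triglyceride and lipid droplet metabolism 17 had a member, and 7 were reached through members alone. Among them were Mgll, the monoglyceride lipase, with 121 RXRα reads over 0 at a score of 20, and Ces1d, a carboxylesterase, with 74 over 1 at -133 bp and a score of 15. Mitochondrial fatty acid oxidation and ketogenesis had a member at 18 of 24 genes, of which 1, the muscle-type carnitine palmitoyltransferase Cpt1b, was reached through a member alone, with 16 RXRα reads over 0. Peroxisomal fatty acid oxidation had a member at 14 of 21 genes, and Acot3, Crot and Scp2 were among those reached through members alone. Acot3, an acyl-CoA thioesterase, had 4 members, and Crot, the carnitine octanoyltransferase, had 1 with 46 RXRα reads over 0.

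Other liver lists were reached as well. Amino acid catabolism and the urea cycle had a member at 24 of 33 genes, with Oat, the ornithine aminotransferase, and Otc, the ornithine transcarbamylase, through members alone. Coagulation, complement and acute phase genes had one at 28 of 42, and 6 of these, among them F9 with 41 RXRα reads over 0 and Orm2 with 55 over 1, had no higher peak on RXRα. Gluconeogenesis and glucose handling had a member at 14 of 23 genes. Pdk4, which restrains glucose oxidation, had 85 RXRα reads over 0 at -136 bp with a score of 20, and its paralog Pdk2 had 35 over 0 with a score of 20. Cytochrome P450 genes of drug metabolism had a member at 12 of 37, and 7 were reached through members alone, among them Cyp3a25 and Cyp4a14, a fatty acid hydroxylase with 76 RXRα reads over 0. The hepatocyte transcription factors had a member at 14 of 21 genes, with Hnf4a and Foxa3 through members alone at 25 and 14 RXRα reads over 0. Circadian clock genes had a member at 9 of 18 and none through members alone. Proteasome subunit genes, most of which are expressed in every cell, had one at 2 of 31, against 11 of 31 with a higher peak on RXRα.

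The labelled tissue was set beside markers of liver cell types, which here are binding sites and not expression. Of 7 hepatocyte markers 3 had a member and 6 a higher peak on RXRα, and the remaining one, Hnf4a, was among the former. Of 6 stellate cell markers 0 had either. Of 5 Kupffer cell, 5 endothelial and 5 cholangiocyte markers 1 each had a member (Csf1r, Kdr and Sox9, with 34, 13 and 21 RXRα reads over 0) and 0 had a higher peak on RXRα.

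Members gathered at some genes. Tmco4 had 10 within 10 kb from its TSS beside 2 higher peaks on RXRα, with 27 to 183 RXRα reads in the top bin and scores from 8 to 20. They lay in 3 stretches from -1513 to 7472 bp. Camk2n1, an inhibitor of calmodulin-dependent kinase, had 9 members with 17 to 52 RXRα reads and no higher peak on RXRα. Ehhadh, the bifunctional enzyme of peroxisomal fatty acid oxidation, had 8 members in introns between 4802 and 8727 bp with 36 to 148 RXRα reads and scores of 7 to 19, beside 1 higher peak on RXRα. Il1r1, the receptor of interleukin 1, also had 8. Grhpr, a glyoxylate reductase, Gjb1, the gap junction protein of hepatocytes, and Epb4.1l4b had 7 each. Adjacent members at these genes share RXRα signal, so their number is not a number of separate sites.

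Of the 18 genes that the design named, 12 had a member. Scp2, Cyp2c50, Ppap2c and Scd1 were the nearest gene of no RARα peak scoring over 20 within 10 kb and were co-located through members alone. Ppap2c, a lipid phosphate phosphatase, had an intronic member at 467 bp with a score of 13 and 105 RXRα reads (85.9 to 127) over 0 input reads. Cyp2c50 had 78 RXRα reads over 3 at -1048 bp with a score of 18, and Scp2, a sterol carrier, had 35 over 0 with a score of 9. Cyp2c29, Cyp2c37 and Abcc3 had neither a member nor a higher RARα peak on RXRα, Apoa4 had neither on RXRα but 2 higher peaks off it, and at Cyp51 and Rara the peaks on RXRα all scored over 20. Abhd5, Acsl1, Aldh3a2, Cyp7b1 and Elovl1 each had 1 or 2 members next to 1 to 4 higher peaks on RXRα, and the weakest of these, at Cyp7b1 and Elovl1, held 13 RXRα reads (6.92 to 22.2) over 0, the fewest that could make a region.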

How the data were processed

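RXRα, RARα and input chromatin of mouse liver were sequenced in 1 library each. Per the labels and the methods, the authors aligned reads with Bowtie after CASAVA (version 1.4 in the processing notes) and called RARα peaks with MACS. For RXRα and input the authors deposited signal, whole-number coverage in 32 bp bins with mm9 in the header, where 1 read covers 5 bins. The totals correspond to 9999939 and 9999292 reads. The paper reports more uniquely mapped reads for RXRα than this, so the totals are not the sequencing depth. How the signal was brought to them is not known here, and the Poisson intervals treat the signal as read counts. For RARα the deposited list gives a score per peak from 5 to 382, whose definition was not given in the sources used here, and a false discovery rate in percent. The depth of the RARα library cannot be read from the list, although the paper gives its number of uniquely mapped reads. The methods name mm10 for the alignment and mm9 for the annotation, and 0 peaks passed the chromosome ends of NCBI37/mm9, which was used throughout.

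Regions, overlaps, distances to 22367 protein-coding TSS (GENCODE M1) and motif matches were computed with Python 3.11.15, numpy 2.4.6, pandas 2.3.3, scipy 1.17.1, pysam 0.24.0 and matplotlib 3.10.9. RXRα enrichment is the mean signal over a peak divided by that of the input, with the input set to at least its genome mean. Peaks abut where the next start is 10 bp after the previous end. The steps were tested on simulated data. No p-values were computed. The members, gene lists and motifs were chosen with earlier results of these data known. Named genes are the 10 with the highest RXRα ratio, the 2 highest of each list among genes reached through members alone, the 5 with most members (ties kept), 18 genes named in the design, and the sites with the highest ratio per arrangement. Other genes appear where a list is spelled out, and the members shown at 4 promoters were chosen after their values were seen.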

Additional observations from a re-analysis of the deposited data

How the results depend on the processing

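The deposited signal limits these results, since 13 RXRα reads in a bin of it could make a region. For RARα only the peak list was used. No paired analysis was possible because there was 1 library per antibody. With RXRα regions at 10 times input there were 27617 members (25.03% of the low-scoring peaks), 19453 regions met by members alone and 5698 genes with a member, with 13.9% of members within 1 kb from a TSS and 8.19% with a DR1. At 15 times input 17.9% of the low-scoring peaks were members, 11.3% within 1 kb and 9.26% with a DR1. At 30 times input there were 9736 members (8.82%), 7.50% within 1 kb and 11.3% with a DR1. With the mean input alone there were 23171 members (21.001%), 11.5% within 1 kb and 8.92% with a DR1. The share of low-scoring peaks on RXRα was 13.9% without scaling, 13.9% with bins joined within 500 bp, 12.4% with an overlap of 25% of the narrower interval (10.6% with a DR1), 19.6% for scores of 10 to 20, 13.9% for a false discovery rate below 1% (11.2% within 1 kb) and 15.9% with abutting peaks merged (5.46% within 1 kb). With a score of 15 or less the share was 10.6%, with 7337 regions met by members alone, 919 genes through members alone and 8.77% within 1 kb. With 10 or less there were 4308 members (6.84%), 2514 such regions, 1136 genes with a member, 297 through members alone and 8.54% within 1 kb. Within 1 kb in place of 10 kb from the TSS, 1204 genes had a member and 712 through members alone. With the starts of all annotated genes 11.1% of members lay within 1 kb. The share with a DR1 was 2.25% with at most 1 mismatch, 36.1% with at most 3, 5.43% within 50 bp of the summit and 12.7% around the top bin of the RXRα region. Without the members whose region also meets a higher peak, an alternative chosen after seeing the data, 8.23% lay within 1 kb. Over the settings that kept abutting peaks apart, the share of members that abut a higher peak was lowest without those members, at 6.20%. It was highest with a score of 10 or less, at 42.8%. In the settings with a score of 15 or less and of 10 or less, a higher peak was one scoring over that bound. The 42.8% is therefore not a share next to peaks scoring over 20 and cannot be compared with the other settings. For the other results, the other settings moved counts by at most 1.5 times and shares within their intervals. The cause of the moves was not tested.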

Other observations

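The deposited RARα list has a strand column although peaks have no strand. Its entry was the same as the strand of the nearest protein-coding gene for 85.1% of all peaks and 83.0% of the members, and it was used in no comparison.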
